A study of Drosophila melanogaster with 6 samples.

Results

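The genes described here encode the vacuolar proton pump (V-ATPase) of *Drosophila melanogaster*, and they comprise every gene whose FlyBase symbol starts with Vha. The rule gave 33 genes, of which 29 had a row among the 17489 genes of the count tables. The other 4, *Vha13*, *Vha26*, *Vha44* and *VhaAC39-1*, had no row under their current FlyBase identifiers and were not analysed here. Subunits C, E and G therefore have no gene in this account, and subunit d is represented only by *VhaAC39-2*. The count tables also held 275 identifiers with no matched symbol, and whether any belongs to these 4 genes was not tested. The data comprised 6 RNA-seq libraries, 3 from flies on a sugar diet (SD, 30% sucrose) and 3 from flies on a control diet (CD, 5% sucrose). All flies were males that carried *Pclc429*, a mutation in *Polycomblike*, an accessory factor of the Polycomb Repressive Complex, and all expressed the FLAG-tagged ribosomal protein UAS-Rpl3-3XFLAG under *Gr5a*, the driver of the sweet-sensing neurons. They were on their diet for 7 days, between days 5 and 12 of adult life, and each library pooled 300 heads. Lysate was incubated with anti-FLAG beads and the RNA bound to the tagged ribosomes was recovered, a method known as translating ribosome affinity purification. No wild-type flies were analysed. No library was labelled as input, but the labels do not say for each library which fraction was sequenced.

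The V-ATPase is a rotary pump that acidifies the inside of organelles. Its peripheral V1 sector hydrolyzes ATP, and its membrane sector, V0, carries protons through a ring of c subunits that turns against subunit a. In neurons the pump acidifies lysosomes and synaptic vesicles, and the proton gradient drives the loading of neurotransmitter. Several subunits of the fly pump are encoded by more than 1 gene, usually a paralog in wide use and others restricted to few tissues, the testis prominent among them.

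Sense counts per library ranged from 16691685 to 19136781 on the sugar diet and from 12617127 to 24076315 on the control diet. Markers of other organs differed between the diets. Of 24 testis genes in the tables, 23 were tested and 19 were called higher on the sugar diet, and their summed normalized counts were 7243 to 20456 in SD libraries and 221 to 284 in CD libraries. All 13 accessory gland genes and 10 of 15 midgut genes were also called higher, as were 2 of 5 Malpighian tubule genes, whose sums were 1103 to 1396 in SD libraries and 1099 to 1169 in CD libraries. None of 9 photoreceptor genes was called, with sums of 514239 to 654707 in SD libraries and 647748 to 761137 in CD libraries. Neuronal genes were abundant and none of 8 was called, with sums of 89423 to 104602 in SD libraries and 102371 to 105814 in CD libraries. The sweet receptor genes that mark the profiled neurons were near the limit of detection, with sums over 9 genes of 9.30 to 46.5 in SD libraries and 25.7 to 49.2 in CD libraries, and *Gr64b*, *Gr64c*, *Gr64d* and *Gr64e* were at 0 in all 6 libraries. The yolk protein genes, a female marker, summed to 618 to 746 in SD libraries and to 880 to 44644 in CD libraries, highest in CD replicate 2, although all flies were labelled male. In bulk libraries such as these, fewer cells of a type and less RNA per cell cannot be told apart.

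The question was whether the subunit paralogs of the pump differed between the diets in *Pcl* mutant flies. Of the 29 *Vha* genes, 28 were tested, 7 were called higher on the sugar diet and 0 lower (DESeq2 Wald test, two-sided, q under 0.1). Among all tested genes 14% were called higher and 0.54% lower. The 7 were *Vha68-3*, *Vha36-2*, *Vha14-2*, *Vha100-3*, *Vha100-5*, *Vha100-4* and *VhaM9.7-d*, all of them rare paralogs of a subunit that also has an abundant gene. The quasi-likelihood test of edgeR called 6 of them higher, all but *Vha100-4*, and 0 lower, against 12.2% of all genes higher. At an unadjusted p under 0.05, DESeq2 and edgeR each placed 1 of the 29 *Vha* genes lower. The matching share over all genes is not given, so nothing is drawn from this count. Without SD replicate 3 the count called higher was 4, and *Vha14-2*, *VhaM9.7-d* and *Vha100-4* were lost. Without CD replicate 2, the library with the high yolk protein counts, it was 7, with *VhaAC39-2* in place of *Vha100-4*.

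The genes fell into 2 ranges of abundance. In 15 *Vha* genes the normalized count averaged 100 or more over the libraries, and these had log2 fold changes (SD over CD) between -0.26 and 0.19, with a median of -0.06, and 0 of them were called in either direction. For 14 of the 15 a difference of 1.5-fold or more could be rejected (paired one-sided tests against each side of the margin, q under 0.1), which held for 40.6% of all genes fitted and for 83.0% of the 7749 genes in the same range of abundance. In that range the median log2 fold change over all genes was -0.04 and 3.86% of genes were called higher. The 14 *Vha* genes under 100 contained all 7 called genes, and 13 of the 14 had a positive log2 fold change, several on few reads. The matching share of positive values among all genes under 100 is not given, so nothing is drawn from the 13. Of the 6506 tested genes under 100, 26.0% were called higher. In 9 *Vha* genes every SD library lay above every CD library, which was the case for 18.1% of all genes, and in 3 every SD library lay below, against 6.02% of all genes.

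**Figure D1:**
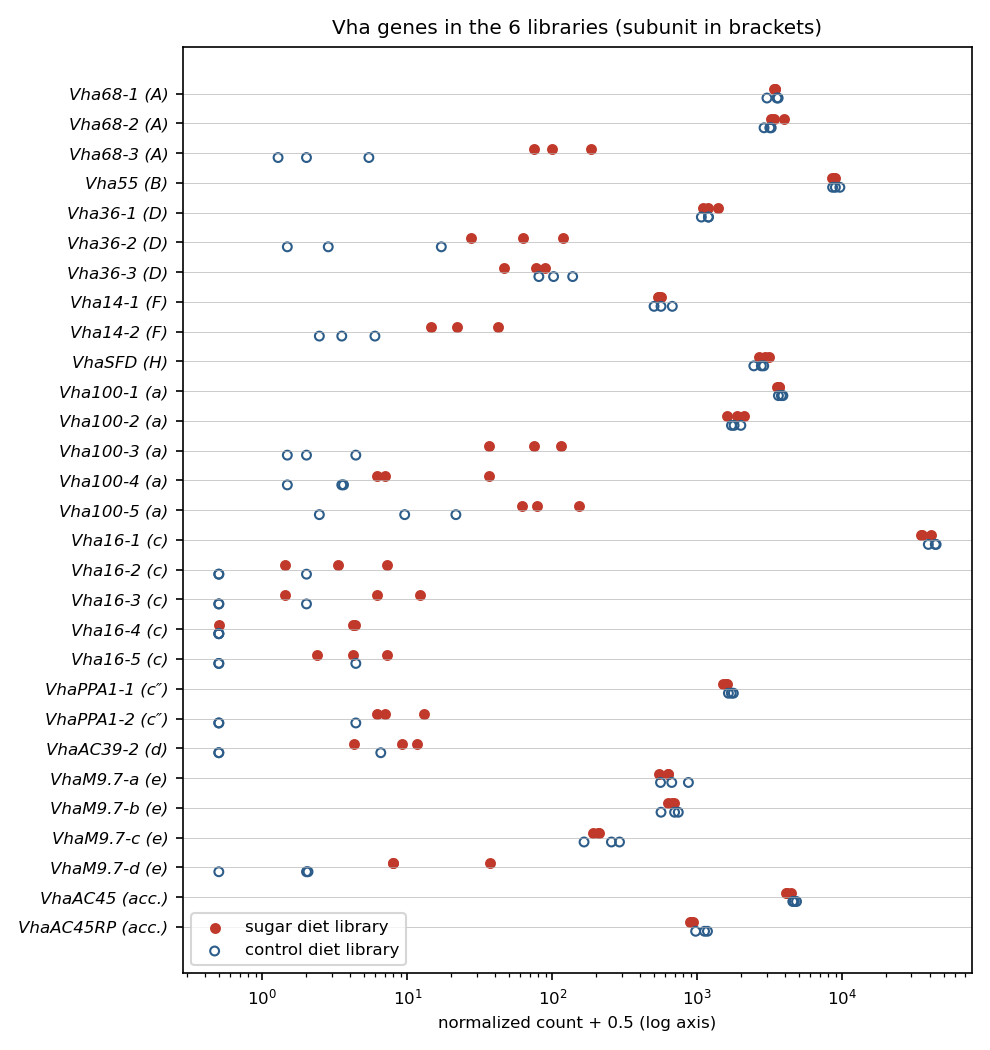
Normalized count plus 0.5 (log axis) of the 29 Vha genes in each SD library (filled) and each CD library (open), with the subunit in brackets and acc. for accessory. The abundant genes have overlapping or adjacent points in both diets, while Vha68-3 lies between 74.4 and 185 in SD libraries and between 0.781 and 4.92 in CD libraries before 0.5 is added.

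In the V1 sector, the catalytic subunit A is encoded by *Vha68-1*, *Vha68-2* and *Vha68-3*. *Vha68-1*, the main paralog per kilobase of exon, had 3429, 3435 and 3379 normalized counts in SD libraries and 3539, 3020 and 3608 in CD libraries. *Vha68-2* had 3353, 3234 and 3968 in SD libraries and 3231, 2884 and 3160 in CD libraries. The *Vha68-1* libraries overlapped between diets, and the *Vha68-2* libraries did not, by a margin of a few counts, with a log2 fold change (given ± SE throughout) of 0.19 ± 0.11 that was not called (DESeq2 q = 0.428) and lay within 1.5-fold. *Vha68-3* had 74.4, 99.4 and 185 in SD libraries and 0.781, 1.51 and 4.92 in CD libraries. The groups were far apart, with SD replicate 3 the highest of all, and the log2 fold change of 5.64 ± 0.71 had the lowest q among the *Vha* genes (DESeq2 q = 1.28e-13, edgeR q = 0.000175). In summed reads, corrected for depth, the SD to CD ratio of *Vha68-3* was 50.2, with an exact 95% interval for counting error of 24.1 to 126, since the 3 CD libraries together held only 7 reads. Without CD replicate 3 the log2 fold change was 6.83.

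Subunit B, the noncatalytic partner of A in the ATP-binding ring, has a single gene. *Vha55* averaged 8690 ± 235 normalized counts in SD libraries and 9047 ± 531 in CD libraries (mean ± standard deviation, n = 3 each), and its log2 fold change of -0.06 ± 0.09 lay within 1.5-fold. The regulatory subunit H, encoded by *VhaSFD*, averaged 2912 ± 226 in SD libraries and 2694 ± 217 in CD libraries and also lay within 1.5-fold.

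Subunits D and F form the central shaft that couples ATP hydrolysis to rotation of the ring. The main gene for D, *Vha36-1*, had 1186, 1101 and 1386 normalized counts in SD libraries and 1191, 1192 and 1065 in CD libraries. *Vha36-2* had 27.0, 61.9 and 117 in SD libraries and 2.34, 16.6 and 0.984 in CD libraries. The diets overlapped for *Vha36-1* and not for *Vha36-2*, whose log2 fold change was 3.50 ± 0.81 (DESeq2 q = 0.000212, edgeR q = 0.0174). CD replicate 2 held most of the CD reads of *Vha36-2*, and without it the log2 fold change was 5.32; without SD replicate 3 it was 2.84. The third D gene, X-linked *Vha36-3*, was the only *Vha* gene under 100 with a negative value. It had 88.3, 45.9 and 76.5 in SD libraries and 137, 80.1 and 101 in CD libraries, which overlapped, with a log2 fold change of -0.61 ± 0.35 that was not called (DESeq2 q = 0.381). The main gene for F, *Vha14-1*, had 544, 531 and 560 in SD libraries and 561, 502 and 671 in CD libraries. *Vha14-2* had 13.9, 21.6 and 41.6 in SD libraries and 5.47, 3.02 and 1.97 in CD libraries. Every SD library of *Vha14-2* lay above every CD library and the log2 fold change was 2.84 ± 0.83 (DESeq2 q = 0.00604, edgeR q = 0.0209), but SD replicate 3 decided the call, since without it the value was 2.31 with q = 0.128 (DESeq2).

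In the V0 sector, subunit a has 5 genes, 3 of which were called. *Vha100-1*, which is known for its role at synapses and in neuronal lysosomal degradation, had 3537, 3678 and 3640 normalized counts in SD libraries and 3623, 3796 and 3889 in CD libraries. *Vha100-2* averaged 1859 ± 240 in SD libraries and 1835 ± 143 in CD libraries (mean ± standard deviation, n = 3 each). Both of these lay within 1.5-fold and their libraries overlapped between diets. *Vha100-3* had 36.3, 74.1 and 113 in SD libraries and 3.91, 1.51 and 0.984 in CD libraries. Its log2 fold change was 5.02 ± 0.77 (DESeq2 q = 2.59e-09, edgeR q = 0.000475) with no overlap, and it was 5.95 without CD replicate 1, the highest CD library. *Vha100-5* had 61.4, 77.8 and 153 in SD libraries and 21.1, 9.07 and 1.97 in CD libraries. The groups of *Vha100-5* were again separate, with a wide spread among CD libraries, and its log2 fold change of 3.15 ± 0.63 (DESeq2 q = 9.81e-06, edgeR q = 0.00726) became 4.25 without CD replicate 1. *Vha100-4*, known from the acid-secreting part of the midgut, had 6.51, 5.62 and 35.8 in SD libraries and 3.12, 3.02 and 0.984 in CD libraries. Most of its reads came from SD replicate 3. Its log2 fold change of 2.76 ± 1.12 was called by DESeq2 (q = 0.0960) and not by edgeR (q = 0.126), and without SD replicate 3 it was 1.36 with q = 0.996 (DESeq2). The call of *Vha100-4* was also lost when any 1 of the CD libraries was left out, with DESeq2 q between 0.166 and 0.299.

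**Figure D2:**
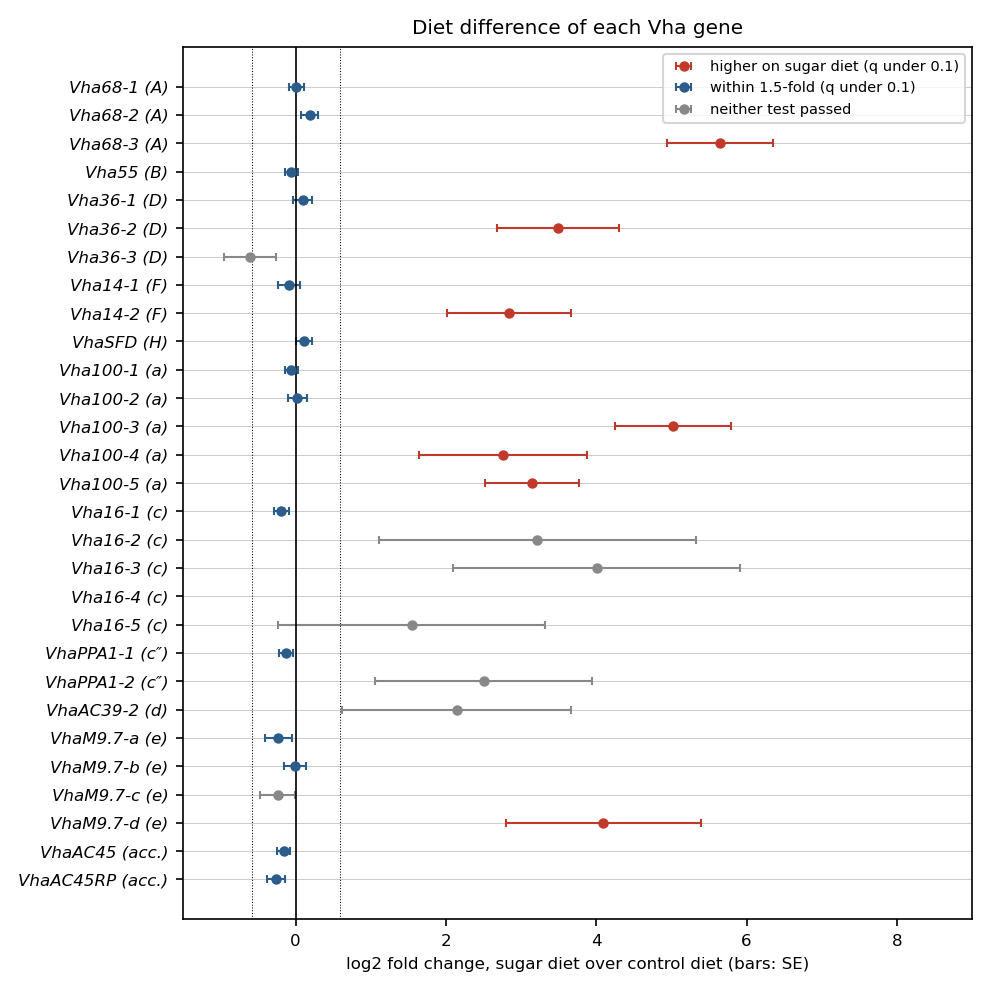
Log2 fold change (SD over CD, DESeq2) of the 28 tested Vha genes with bars of 1 SE, coloured by the outcome of the tests; dotted lines mark 1.5-fold and Vha16-4 is left out. The called genes have values between 2.76 and 5.64, while the genes within 1.5-fold lie between -0.26 and 0.19.

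The c ring was dominated by *Vha16-1*. It had 41049, 35157 and 35272 normalized counts in SD libraries and 43766, 44371 and 39193 in CD libraries, which ranked it 35 among all genes by count. Per kilobase of exon its level was 12935, above 99.5% of tested genes. Its log2 fold change was -0.19 ± 0.10, not called (DESeq2 q = 0.297) and within 1.5-fold; SD replicate 1 decided this, since without it the value was -0.27 with q = 0.0181 (DESeq2) and *Vha16-1* was called lower. The other c genes were barely detected. *Vha16-2*, *Vha16-3* and *Vha16-5* had at most 11.6 normalized counts in any SD library and at most 3.91 in any CD library, and none was called. *Vha16-4* had 4, 0 and 4 reads in SD libraries and 0 in every CD library and received no adjusted p from DESeq2 (edgeR q = 0.295). The c″ subunit, which sits in the same ring, was represented by *VhaPPA1-1*, with 1570, 1507 and 1600 in SD libraries and 1771, 1713 and 1637 in CD libraries. All SD libraries of *VhaPPA1-1* lay below all CD libraries, but the log2 fold change of -0.13 ± 0.10 was not called and lay within 1.5-fold. *VhaPPA1-2*, its rare paralog, had 6.51, 5.62 and 12.6 in SD libraries and 3.91, 0 and 0 in CD libraries and was not called (DESeq2 q = 0.385), though it was without CD replicate 1 (q = 0.0631). *VhaAC39-2*, the gene of subunit d analysed here, had 11.2, 3.75 and 8.72 in SD libraries and 0, 6.05 and 0 in CD libraries. It was called without CD replicate 2 only (DESeq2 q = 0.0344).

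Subunit e, a small membrane protein, was shared by several abundant genes. *VhaM9.7-a* had 625, 622 and 539 normalized counts in SD libraries and 867, 556 and 665 in CD libraries. *VhaM9.7-b* averaged 661 ± 35.4 in SD libraries and 665 ± 92.5 in CD libraries, and *VhaM9.7-c* averaged 201 ± 10.4 in SD libraries and 237 ± 64.5 in CD libraries (mean ± standard deviation, n = 3 each). All 3 overlapped between diets, and *VhaM9.7-c* was the only gene of the abundant range for which a 1.5-fold difference could not be rejected (q = 0.165). *VhaM9.7-d* had 7.44, 7.50 and 36.8 in SD libraries and 1.56, 1.51 and 0 in CD libraries. Its log2 fold change was 4.09 ± 1.30 (DESeq2 q = 0.0140, edgeR q = 0.0385), on 3 CD reads in all, and without SD replicate 3 it was 2.89 with q = 0.443 (DESeq2). For *VhaM9.7-d* it was 4.78 without CD replicate 1 and 3.47 without CD replicate 3, and the call held.

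The accessory proteins assist assembly and sorting of the pump, and neither *VhaAC45* nor *VhaAC45RP* was called. *VhaAC45* had 4395, 4137 and 4056 normalized counts in SD libraries and 4552, 4830 and 4667 in CD libraries. *VhaAC45RP*, a paralog implicated in synaptic vesicle acidification, had 931, 902 and 896 in SD libraries and 1173, 1121 and 972 in CD libraries. In both genes every SD library lay below every CD library. Their log2 fold changes were -0.16 ± 0.08 for *VhaAC45* (DESeq2 q = 0.315) and -0.26 ± 0.12 for *VhaAC45RP* (DESeq2 q = 0.181), not called, and both lay within 1.5-fold. *VhaAC45* was called lower without SD replicate 1 (q = 0.0812) and *VhaAC45RP* without CD replicate 3 (q = 0.0191, DESeq2).

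Ratios of paralogs within a library are nearly free of how libraries are scaled. Each of 17 paralogs was divided by the main paralog of its subunit after adding 0.5 to each normalized count. In 9 pairs every SD ratio lay above every CD ratio, in 0 pairs below, and in 8 pairs the diets overlapped. The 9 were the pairs of the 7 called genes and those of *Vha16-4* and *VhaPPA1-2*. The pair of *Vha16-4* carries no weight, since that gene had 0 reads in SD replicate 2 and in all CD libraries and its ratios there reflect only the 0.5 added, which leaves 8 pairs. In these 8 the paralog's own counts were already separate between the diets, so the ratios are not separate evidence. Of all genes, 18.1% had every SD library above every CD library. The log2 ratio of *Vha68-3* to *Vha68-1* averaged -4.94 ± 0.68 in SD libraries and -10.45 ± 1.03 in CD libraries (mean ± standard deviation, n = 3 each), a difference of 5.52. For *Vha68-2* to *Vha68-1* it averaged 0.04 ± 0.17 in SD libraries and -0.13 ± 0.06 in CD libraries, and these overlapped. With 3 libraries a diet, the 20 possible assignments cannot give an exact two-sided permutation p under 0.1, which all 9 separate pairs had, and adjusted over the 17 pairs it was 0.19.

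**Figure D3:**
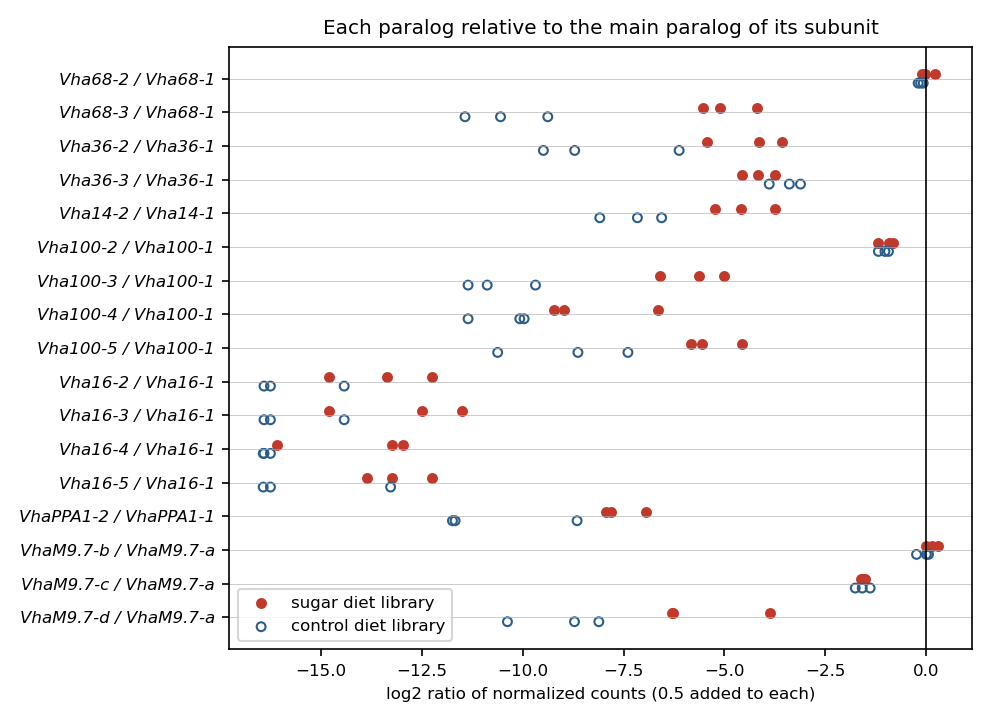
Log2 ratio of the normalized count of each of 17 paralogs to the main paralog of its subunit, in each SD library (filled) and each CD library (open). The SD ratios of the 7 called genes lie to the right of their CD ratios, those of 8 pairs overlap between the diets, and Vha36-3 averages -4.16 in SD libraries and -3.46 in CD libraries.

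In share of reads, the rare paralogs stayed a small part of each subunit. The 7 called genes held 0.591% ± 0.339 of all normalized *Vha* counts in SD libraries and 0.0370% ± 0.0184 in CD libraries (mean ± standard deviation, n = 3 each). For subunit F, *Vha14-2* made up 4.44% ± 2.26 of reads in SD libraries and 0.619% ± 0.337 in CD libraries. For subunit a, the 4 genes other than *Vha100-1* made up 36.0% ± 3.6 in SD libraries and 32.9% ± 2.0 in CD libraries, most of it *Vha100-2*. Summed over all 29 genes, *Vha* counts were 71585 ± 3445 in SD libraries and 77214 ± 2171 in CD libraries, and *Vha16-1* gave most of these counts. Per kilobase of exon, mean levels over both diets were 2493 for A, 3183 for B, 1213 for D, 861 for F and 991 for H in V1. In V0 they were 1731 for a, 12950 for c, 1215 for c″ and 1732 for e, so that c stood well above every other subunit listed.

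The 7 called genes were highest in SD replicate 3 without exception, by 2.49- to 5.51-fold over SD replicate 1. This order was not limited to called genes. Among uncalled rare genes, *Vha16-2*, *Vha16-3*, *Vha16-5* and *VhaPPA1-2* were also highest there, on few reads, *Vha16-3* by 12.5-fold over SD replicate 1. *Vha36-3* and *VhaAC39-2* had their highest SD value in SD replicate 1. Of the 15 abundant *Vha* genes, 6 had their highest SD value in SD replicate 3. No matching share over all genes is given. The testis markers were 2.82-fold higher in SD replicate 3 than in SD replicate 1, the accessory gland markers 2.73-fold and the midgut markers 2.47-fold, whereas the neuronal sum was 0.906-fold. Of the testis genes that define the organ, *Mst87F* had 217, 454 and 673 normalized counts in SD libraries and 3.12, 0 and 9.84 in CD libraries, and *dj* had 214, 389 and 764 in SD libraries and 3.12, 0 and 7.87 in CD libraries. Of the others in that set, *betaTub85D* and *aly* were higher in every SD library than in every CD library. The diets overlapped for *can*, with 7.44, 5.62 and 9.69 in SD libraries and 3.91, 9.07 and 4.92 in CD libraries. None of the 24 testis genes was at 0 in all 6 libraries. Summed midgut markers were 3660 to 9103 in SD libraries and 294 to 1264 in CD libraries, and summed accessory gland markers were 1508 to 4342 in SD libraries and 29.5 to 86.7 in CD libraries. Like the 7 called genes, the testis, midgut and accessory gland sums were higher in every SD library than in every CD library. From SD replicate 1 to SD replicate 2 the summed 7 genes went from 227 to 348 and the testis sum from 7243 to 10259. Over the same libraries the accessory gland sum went from 1589 to 1508 and the midgut sum from 3689 to 3660. The midgut sum held genes that moved apart. *Jon65Aiv* went from 455 to 1080, whereas *Amy-p* went from 668 to 144 and *Jon99Ci* from 27.9 to 15.0. The diets overlapped for *Amy-p*, with 668, 144 and 290 in SD libraries and 444, 286 and 87.6 in CD libraries. The part of these tissues in the result was not tested.

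**Figure D4:**
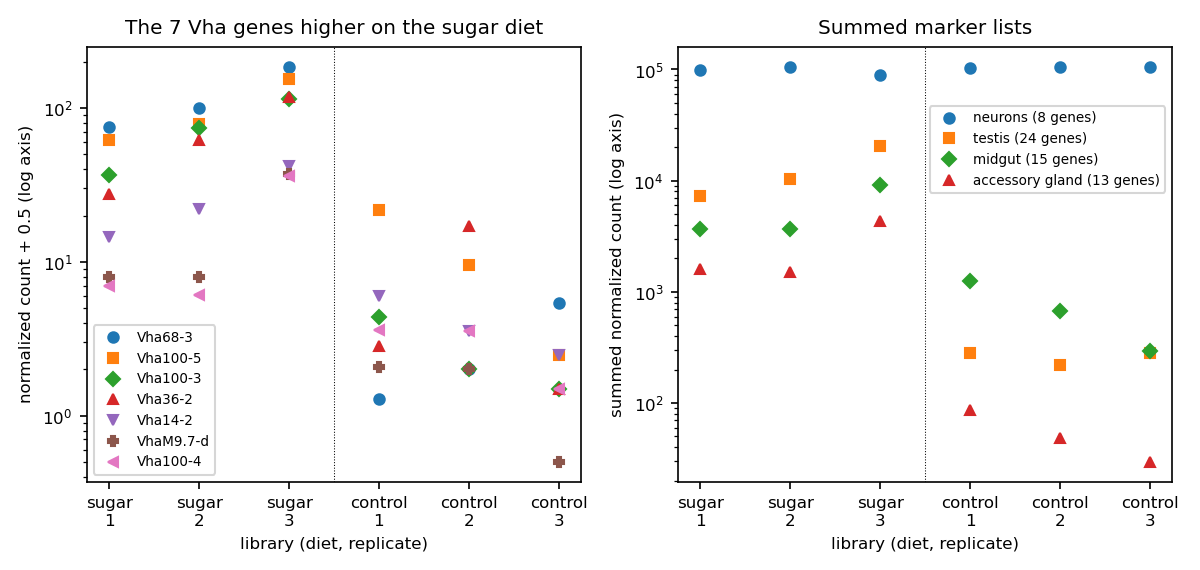
Left, normalized count plus 0.5 (log axis) of the 7 called Vha genes in each library; right, summed normalized counts (log axis) of 4 marker lists, with the number of genes in brackets. Both the called genes and the testis, midgut and accessory gland sums are highest in SD replicate 3, and the neuronal sum lies between 89423 and 105814 throughout.

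The gene models, which the choice by symbol did not use, were compared without a test. The called genes had 1 to 4 exons (median 2) and 1 to 3 annotated transcripts (median 1), whereas the 15 abundant genes had 1 to 13 exons (median 4) and 1 to 10 transcripts (median 2). *Vha68-3* lies on chromosome 2L (12978786 to 12981293, plus strand, dm6), 178 bases downstream of *Vha68-2* on the same strand with no gene between them. *Vha68-1* lies a further 19476 bases away on the other strand. *Vha100-4* on chromosome 3R (18386841 to 18389805, minus strand) is 517 bases from *Vha100-2*, also on the same strand. Of these neighbors, *Vha68-3* and *Vha100-4* were called and *Vha68-2* and *Vha100-2* lay within 1.5-fold, and the difference between neighbors was not tested. No *Vha* gene overlapped an exon of another gene on its own strand. *Vha100-3* had 15, 9 and 9 opposite-strand reads in SD libraries and 18, 14 and 10 in CD libraries, and in unstranded counts, which add these, its log2 fold change was 2.32. An opposite-strand result was available for 17 *Vha* genes, and 0 of them were called on that strand. No *Vha* gene had more than 149 reads there in any library, and the matching share over all genes is not given. Nothing is drawn from this count. Reads that map equally well to similar paralogs are not counted in this layout, so levels of close copies such as *Vha68-1* and *Vha68-2* are uncertain.

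Genes that act with the pump were examined as a list of 26 symbols. It covered assembly factors, a regulator of lysosomal genes, lysosomal proteins, and the Ragulator and Rag GTPases that sense nutrients with the pump. It also covered sodium-proton exchangers and chloride transport proteins of the ClC family. Of the 26 symbols, 24 matched a gene with a row. Among these genes 23 were tested, 0 were called in either direction, and 20 lay within 1.5-fold, with a median log2 fold change of -0.07. These counts were close to those of all genes averaging 100 or more, of which 3.86% were called higher and 83.0% lay within 1.5-fold. *Rbcn-3A*, a subunit of the complex that assembles V1 onto V0, averaged 7030 ± 283 normalized counts in SD libraries and 7024 ± 393 in CD libraries (mean ± standard deviation, n = 3 each). *Mitf*, a transcription factor known to control V-ATPase genes in the fly, averaged 1582 ± 146 in SD libraries and 1704 ± 65.3 in CD libraries. *ATP6AP2*, an accessory subunit also known as VhaM8.9, averaged 1678 ± 106 in SD libraries and 1626 ± 172 in CD libraries. The highest value of the list was 0.64 ± 0.36 for *Nha1*, a sodium-proton antiporter, and the lowest was -0.34 ± 0.16 for *ClC-b*, a chloride exchanger, and neither passed either test.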

How the data were processed

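Raw read counts per gene were deposited for each library, after ribosomal RNA depletion and stranded library preparation. The authors discarded low-quality reads and aligned the rest to dm6. The submitters' processing notes name STAR, SAMtools 1.4, HTSeq and DESeq2 1.18.0; the tables have the layout that STAR writes, and the annotation release was not given in the sources used here. The sense column, with 97.2% of stranded counts, was used. Symbols were matched to 17214 identifiers and 275 had none; gene models came from the Ensembl GTF of the same assembly. The members and lists were chosen with earlier results of these data known.

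As in the study's methods, diets were compared with DESeq2 1.42.0 (R 4.3.3), all genes with at least 1 count entering, at q under 0.1. Normalized counts are counts over size factors. The margin of the equivalence test was 1.5-fold. edgeR 4.0.16, TMM scaling, a minimum of 10 counts in 3 libraries, unstranded counts, a replicate block and leaving out each library were alternatives. Values per library are printed for the main paralog of each subunit, every called gene, and its most abundant paralog, with others chosen after their values were seen. Libraries of a diet differed by more than sampling noise (chi-square per degree of freedom of at least 20.9). That replicates came from separate flies is known only as far as the labels call them biological. Counting intervals and the floor of 3 counts cover counting error only. No promoter or protein sequence was used.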

Additional observations from a re-analysis of the deposited data

How the results depend on the processing

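The count of *Vha* genes called higher was 7. It was 7 with TMM scaling, 6 by edgeR and with unstranded counts, and 5 with the replicate block. A minimum of 10 counts in 3 libraries also gave 5. That minimum removed *Vha100-4* and *VhaM9.7-d* before testing, and the other called genes stayed called. Leaving out each library in turn gave 4 to 7 higher and 0 to 2 lower. Same-numbered libraries did not deviate together (correlations of 0.03, -0.04 and -0.10), so the replicate block pairs nothing known; under it *VhaM9.7-d* (q = 0.116) and *Vha100-4* (q = 0.484, DESeq2) were lost. *Vha100-4* was also lost in unstranded counts (q = 0.114) and when CD replicate 1 (q = 0.208), 2 (q = 0.166) or 3 (q = 0.299) was left out, and the cause was not tested. Of the log2 fold changes under alternatives, 285 kept direction and call, 10 fell short of the threshold, 5 newly passed it and 10 changed sign. The sign changes were in abundant genes near 0. With libraries left out the ranges were -0.067 to 0.115 for *Vha100-2*, -0.18 to 0.019 for *Vha14-1*, -0.0035 to 0.163 for *Vha36-1*, -0.070 to 0.044 for *Vha68-1* and -0.12 to 0.066 for *VhaM9.7-b*, and *Vha68-1* was -0.0030 in unstranded counts. The log2 ratio difference ranged from -0.010 to 0.185 for *Vha100-2* to *Vha100-1* and from -0.079 to 0.106 for *VhaM9.7-c* to *VhaM9.7-a*, while 133 other ratio values kept their direction. Below about 10 reads a library, depth limits what can be said of the rare paralogs.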
